A study of Homo sapiens with 15 samples.

Results

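The regions described here were the 887 BG4 regions of K562 cells that lay inside protein-coding genes but away from start sites and exons. They were chosen by position alone from the 8937 high-confidence regions on chromosomes 1 to 22 and X. Each lay more than 1 kb from the start of every transcript in the GENCODE basic set, and its middle fell inside a protein-coding gene and in no exon of a basic transcript. The rest comprised 6695 regions within 1 kb of a protein-coding start (promoter regions below), 644 intergenic regions away from starts, 165 exonic ones and 546 at other starts only. BG4 is an antibody against folded G-quadruplexes (G4s), and K562 is an established human cell line from chronic myelogenous leukaemia that has erythroid traits and carries the BCR-ABL1 fusion. Chromatin of untreated K562 cells was precipitated with BG4 in 5 libraries from 2 biological replicates, replicate 1 giving technical libraries 1a and 1c and replicate 2 giving 2a, 2b and 2c. The series also has 2 K562 input libraries, and HaCaT keratinocyte samples, 4 treated with 10 uM entinostat, a histone deacetylase inhibitor, for 48 h and 4 control; these were not analysed here.

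A G-quadruplex forms when runs of guanine on one DNA strand stack into planar tetrads, which needs the strand to be free of its partner for a time. Runs of guanine are common at promoters with CpG islands, stretches rich in unmethylated CpG, and open promoters of active genes are where most BG4 signal has been found. Introns are long and mostly poor in GC, and they hold enhancers, internal promoters and short GC-rich stretches beside exons. In erythroid and megakaryocytic cells many enhancers are bound by GATA1, a zinc finger factor that reads GATA-containing words, and AP-1, dimers of JUN and FOS proteins, binds enhancers in many cell types.

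Intronic regions differed in sequence among themselves. Members in CpG islands or at exon edges were GC-rich and often carried G4 motifs. Of members outside islands, 21.1% held a short word read by GATA factors and 20.1% one read by AP-1. Over all intronic regions these words were about as frequent as in intergenic regions (15.4% against 16.0%, and 14.8% against 15.8%). Members with such a word were poorer in GC and seldom carried a G4 motif. The sequences below show GC-rich members: the part of each region around the G4 motif with most guanine runs, in hg19 (GRCh37) and read 5′ to 3′ on the strand that carries the guanines. They are the regions with the highest fold enrichment in all libraries that held a motif, followed by those with the most guanine runs. Capitals mark a canonical motif on the printed strand, meaning at least 4 guanine runs, each 3 bases or longer, separated by loops 1 to 7 bases long.
LMTK3, chr19:48996536-48996675, minus strand: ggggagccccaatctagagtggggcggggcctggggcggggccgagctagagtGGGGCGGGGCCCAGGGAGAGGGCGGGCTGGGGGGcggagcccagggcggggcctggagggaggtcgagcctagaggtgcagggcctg
ARHGAP45, chr19:1082439-1082540, plus strand: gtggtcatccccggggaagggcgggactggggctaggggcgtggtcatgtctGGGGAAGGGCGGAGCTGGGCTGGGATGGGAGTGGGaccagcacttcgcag
CELF5, chr19:3285802-3285904, minus strand: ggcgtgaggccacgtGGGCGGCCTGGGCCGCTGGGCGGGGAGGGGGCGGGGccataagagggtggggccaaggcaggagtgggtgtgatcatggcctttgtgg
DNM1, chr9:131012870-131013009, plus strand: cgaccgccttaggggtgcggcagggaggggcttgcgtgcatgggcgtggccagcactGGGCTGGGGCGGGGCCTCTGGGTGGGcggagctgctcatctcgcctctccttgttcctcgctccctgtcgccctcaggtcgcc
RYR1, chr19:38998028-38998166, plus strand: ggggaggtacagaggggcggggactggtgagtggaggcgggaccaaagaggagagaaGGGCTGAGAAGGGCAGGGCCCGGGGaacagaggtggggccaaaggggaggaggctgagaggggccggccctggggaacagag
PRKD2, chr19:47200686-47200774, minus strand: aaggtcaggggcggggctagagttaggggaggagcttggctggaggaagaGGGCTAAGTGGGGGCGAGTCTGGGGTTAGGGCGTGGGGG
C19orf81, chr19:51161365-51161504, plus strand: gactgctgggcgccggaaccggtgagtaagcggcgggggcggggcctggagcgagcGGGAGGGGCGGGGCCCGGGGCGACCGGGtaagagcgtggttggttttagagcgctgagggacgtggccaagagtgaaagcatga
CELF5, chr19:3276132-3276271, plus strand: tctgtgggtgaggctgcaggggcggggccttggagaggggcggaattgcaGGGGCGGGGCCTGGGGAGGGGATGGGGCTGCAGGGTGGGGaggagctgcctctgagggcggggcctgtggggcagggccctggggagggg
MAMSTR, chr19:49217760-49217856, plus strand: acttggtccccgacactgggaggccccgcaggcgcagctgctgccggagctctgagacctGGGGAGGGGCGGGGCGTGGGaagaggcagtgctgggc
AGRN, chr1:976325-976489, plus strand: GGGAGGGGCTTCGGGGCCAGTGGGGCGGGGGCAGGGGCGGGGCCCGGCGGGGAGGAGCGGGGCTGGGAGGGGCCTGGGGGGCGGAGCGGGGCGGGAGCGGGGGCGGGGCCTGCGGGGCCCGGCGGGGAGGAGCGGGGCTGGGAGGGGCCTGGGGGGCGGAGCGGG
FAAP20, chr1:2136482-2136621, minus strand: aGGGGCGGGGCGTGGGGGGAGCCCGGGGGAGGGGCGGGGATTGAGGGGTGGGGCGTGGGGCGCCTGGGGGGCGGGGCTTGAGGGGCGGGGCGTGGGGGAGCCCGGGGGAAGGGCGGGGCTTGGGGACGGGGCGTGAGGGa
FXYD1, chr19:35632152-35632290, minus strand: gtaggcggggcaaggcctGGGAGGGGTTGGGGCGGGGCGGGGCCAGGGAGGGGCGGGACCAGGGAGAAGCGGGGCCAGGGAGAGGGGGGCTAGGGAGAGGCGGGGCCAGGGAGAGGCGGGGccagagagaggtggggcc
All 12 of these sequences held GGGCGG, the GC box of SP and KLF factors, on the printed strand, and in 9 of them that strand was the coding strand of the host gene. The motif of AGRN ran through all 165 printed bases with 23 guanine runs, against 4 runs in RYR1 and MAMSTR.

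Members with GATA or AP-1 words are shown by stretches from genes of the erythroid and of the blood signalling list, up to 40 bases on each side of the first GATA or AP-1 word in the central 200 bp. Capitals mark that first word only: AGATAA, the word of GATA factors, or TGANTCA, the word of AP-1. The strand is the one that reads the word. The BCR and PIK3CD stretches each hold a further copy of their word in lower case.
SLC4A1, chr17:42344135-42344205, plus strand: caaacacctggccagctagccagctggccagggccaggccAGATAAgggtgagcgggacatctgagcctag
BCR, chr22:23566148-23566232, minus strand: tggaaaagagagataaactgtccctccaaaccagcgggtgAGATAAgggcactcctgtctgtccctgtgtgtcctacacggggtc
PIK3CD, chr1:9779246-9779332, plus strand: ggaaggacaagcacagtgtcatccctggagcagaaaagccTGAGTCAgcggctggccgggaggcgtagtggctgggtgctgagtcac
STAT3, chr17:40472040-40472124, plus strand: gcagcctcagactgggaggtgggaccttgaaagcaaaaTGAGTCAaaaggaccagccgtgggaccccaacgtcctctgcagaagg
Of the 19 regions in these 2 lists, 2 held the GATA word, 3 the AP-1 word and 2 a canonical G4 motif. Over all 887 intronic regions the shares were 15.4%, 14.8% and 29.2% in the same order. The counts of words therefore show no excess in these lists. The 4 regions printed were chosen after their sequences were seen.

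The strongest intronic regions were ranked by the lowest percentile that a region's fold enrichment reached within the 5 peak lists. The fold is the authors' peak-caller value at the summit of the highest overlapping peak, relative to local background. Of the 12 strongest, 8 lay on chromosome 19, 10 in a CpG island and 9 held a canonical motif. First place went to a region in intron 13 of 15 of LMTK3, a membrane-bound kinase, at chr19:48996073-48996915. Its fold enrichment was 23.7 (1a), 17.8 (1c), 14.9 (2a), 14.8 (2b) and 15.9 (2c), and its lowest percentile within a list was 99.5. ARHGAP45 followed in intron 19 of 22 with 16.3 (1a), 13.8 (1c), 11.8 (2a), 12.2 (2b) and 11.5 (2c). In 1a and 1c the same peak also covered the next member along the gene. Both replicates placed these regions near the top of the list. The folds of replicate 1 were the higher ones in both, but folds are comparable only within a list. In percentiles ARHGAP45 stood at 98.3 in 1c and 98.8 in 2b.

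CELF5, an RNA-binding protein of the splicing regulator family, held 2 of the 12. In intron 9 of 12 the folds were 16.9 (1a), 17.5 (1c), 11.8 (2a), 11.7 (2b) and 15.2 (2c), and the motif was on the template strand. In intron 4 they were 13.3 (1a), 10.4 (1c), 12.3 (2a), 10.8 (2b) and 13.2 (2c), with the motif on the coding strand. DNM1, the dynamin of nerve terminals, had a region in intron 20 of 22 and RYR1, the calcium release channel of skeletal muscle, in intron 57 of 105. The RYR1 region ranged between a fold of 11.0 in 2b and 16.8 in 2a, and that of DNM1 between 10.2 in 2b and 15.4 in 1a. PRKD2 (protein kinase D2), C19orf81 and MAMSTR, a coactivator of MEF2 factors, completed the motif-bearing ones, with lowest percentiles of 93.9, 93.1 and 89.6.

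Of the 12 strongest, 3 regions held no canonical motif. The region in intron 4 of ABCC1, a multidrug efflux transporter, had folds of 20.1 (1a), 14.8 (1c), 15.5 (2a), 9.76 (2b) and 12.7 (2c). It lay outside any CpG island, 72433 bp from the nearest basic start, and held an AP-1 word. HS3ST3B1, a heparan sulfate sulfotransferase, had a region inside an island of its only intron with folds between 10.4 in 2c and 12.4 in 1a. AHRR, the aryl hydrocarbon receptor repressor, had folds between 9.64 in 2b and 13.2 in 1a. The central 200 bp of its region were a tandem repeat with a period of 34 bp.

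**Figure D1:**
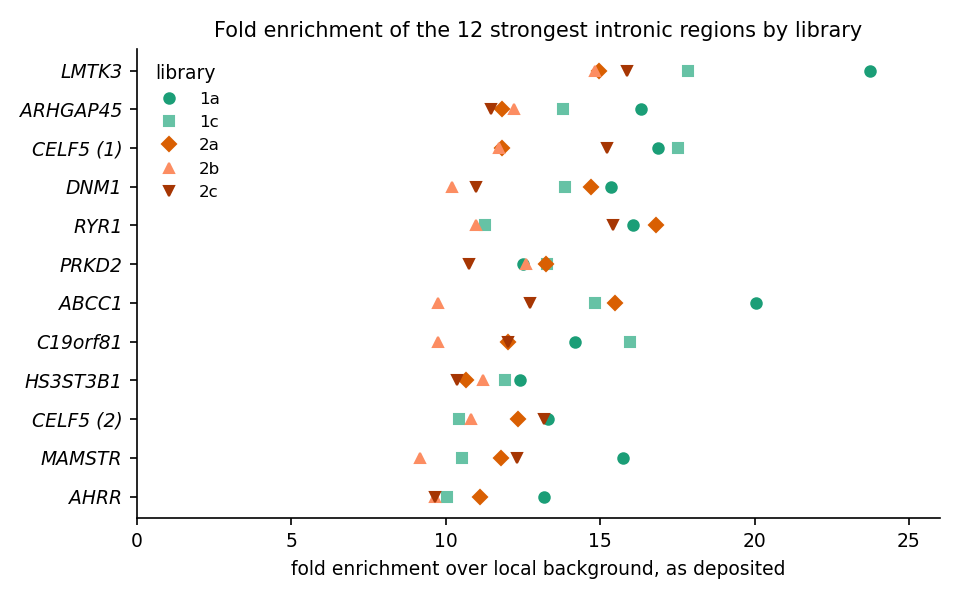
Fold enrichment over local background, as deposited, for the 12 strongest intronic regions (rows, named by host gene) in each of the 5 BG4 libraries (symbols); CELF5 has 2 rows. The region in LMTK3 reached 23.7 in library 1a and was at least 14.8 in every library.

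The regions were GC-rich but narrower and poorer in CpG than promoter regions. Their median width was 172 bp, against 168 bp in intergenic and 215 bp in promoter regions. The median GC content was 64.5% in intronic, 64.7% in intergenic and 71.1% in promoter regions, and the observed over expected CpG ratio was 0.424, 0.470 and 0.882 in the same order. The nearest basic start lay 7173 bp away in the median and between 1008 and 150492 bp away. A total of 31 members were under 50 bp wide, and 43 shared a peak of some library with another region.

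A CpG island by the strict definition (500 bp, GC share 0.55, CpG ratio 0.65) was present at 286 of 887 intronic regions, 32.2% (95% Wilson interval 29.2 to 35.4), where 83.2% of all high-confidence regions had one. The share was 39.9% in intergenic regions, a difference of −7.66 percentage points (Newcombe interval −12.5 to −2.80), and 95.7% in promoter regions, a difference of −63.5 points (−66.5 to −60.3). Of all 200 bp windows of intron sequence away from starts, 0.797% had such an island. The difference from intergenic regions had an interval that reached 0 when looser islands were used (−3.74 points). Within each library's own peaks the intronic share was below the intergenic one in 5 of 5 libraries, by 5.01 ± 1.20 points (SD, n = 2 biological replicates), and below the promoter one in 5 of 5.

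A canonical G4 motif was found wholly inside 259 intronic regions, 29.2% (26.3 to 32.3), against 34.7% of all high-confidence regions. It was found in 21.3% of intergenic regions, a difference of 7.93 points (3.52 to 12.2), and in 37.3% of promoter regions, a difference of −8.10 points (−11.2 to −4.81). The 200 bp windows of intron sequence held the motif in 2.01%. Per library, intronic peaks held motifs more often than intergenic ones in 5 of 5 libraries and less often than promoter ones in 5 of 5. Without members that touched an exon the difference from intergenic regions was 2.12 points, and with the starts of all transcripts 1.87, both with intervals that included 0. The difference from promoter regions was −3.52 points without library 1a, −3.85 without 2c, −4.21 at widths of 150 to 300 bp and −0.476 at a −log10 p of at least 10, each with an interval that included 0. Among regions found in all 5 libraries it was 2.35 points, on the other side of 0.

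Within bands of GC content the order changed (the plot of motif share by GC content). Classes and windows may still differ in GC content inside a band, which was not measured. In the band of 60 to 70% GC over the central 200 bp, 27.7% of 419 intronic regions held a motif there, against 18.1% of 270 intergenic and 19.2% of 2467 promoter regions and 19.3% of intron windows. The intronic share was higher by 9.54 points than the intergenic one (3.07 to 15.6), by 8.47 points than the promoter one (4.10 to 13.2) and by 8.41 points than that of windows (4.33 to 12.9). The difference from intergenic regions was 6.76 points without library 2a, 4.37 without 2b, 6.37 with the starts of all transcripts and 8.65 at a −log10 p of at least 10, each with an interval that included 0. At 70% GC or more, 64.2% of 226 intronic regions held one, against 48.2% of intergenic and 49.3% of promoter regions and 47.5% of windows, differences of 15.9 (6.47 to 25.0), 14.9 (8.26 to 21.1) and 16.7 points (10.2 to 22.7). Between 50 and 60% GC the intronic share was 6.93%, against 7.23% in intergenic and 7.22% in promoter regions, and neither interval left out 0. The peaks of each library gave the same direction: at 70% GC or more intronic peaks exceeded promoter peaks in 5 of 5 libraries by 11.6 ± 1.55 points (SD, n = 2), and at 60 to 70% GC by 5.80 ± 4.14. Without members that touched an exon, the difference from promoter regions at 70% GC or more was 7.78 points and its interval included 0. Allowing guanine runs of 2 bases gave 0.365 points. The windows held no exon base, and the difference from windows was not computed without members that touched an exon. These differences rest on 2 biological replicates, where the smallest two-sided exact permutation p is 0.5.

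**Figure D2:**
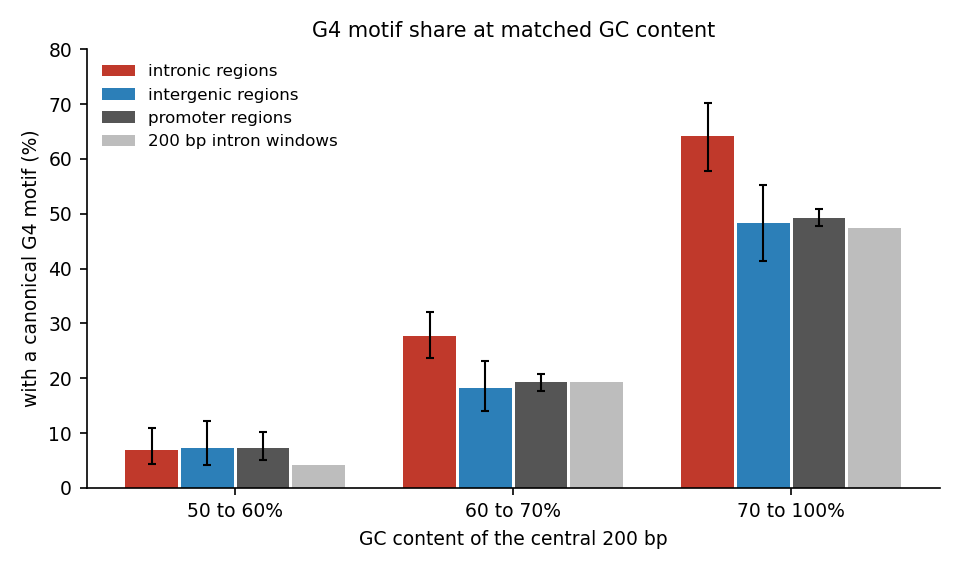
Share of regions with a canonical G4 motif in the central 200 bp (vertical axis, %) by GC content of that window (horizontal axis), for intronic, intergenic and promoter regions and for all 200 bp windows of intron; bars on the first 3 classes are 95% Wilson intervals. At 70% GC or more the intronic bar stands at 64.2%, above the promoter bar at 49.3%.

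The split by island separated members in other measures as well. Members in an island held a motif in 51.4%, against 18.6% of those outside, and had a peak in all 5 libraries in 57.0%, against 33.8%, differences of 32.8 (26.1 to 39.2) and 23.2 points (16.2 to 29.9). Their median GC content was 71.5%, against 61.7%. At the edge of exons the pattern was alike: 137 members overlapped an exon with some base although their middle did not, and 60.6% of these held a motif, against 23.5% of the 750 that touched none (difference 37.1 points, 28.2 to 45.4). Those 137 were also wider, with a median of 272 bp against 162 bp. In the central 200 bp alone the shares with a motif were 54.7% and 26.9%.

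Starts that the basic set leaves out were near some members. In 280 of 887, 31.6%, another annotated transcript of any kind started within 1 kb. Of these 280, 51.4% had a peak in all 5 libraries, 43.2% a motif and 53.6% an island. For the 607 with no annotated start within 1 kb the shares were 36.6% for the libraries, 22.7% for the motif and 22.4% for the island. Among the 12 strongest, 5 belonged to the first set: a start lay inside the regions of ARHGAP45 and C19orf81, 4 bp from that of DNM1, 88 bp from that of PRKD2 and 545 bp from that of CELF5 in intron 9. Whether those transcripts are made in K562 was not tested.

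Words of GATA factors or AP-1 lay in the central 200 bp of some members, mostly outside islands. AGATAA on either strand was present in 15.4% of all intronic regions, against 16.0% of intergenic and 1.55% of promoter regions and 14.5% of intron windows. Within the intronic regions it was in 21.1% of the 601 outside islands (18.1 to 24.6) and in 3.50% of the 286 inside. TGANTCA was present in 14.8% of all intronic regions, against 15.8% of intergenic and 2.67% of promoter regions and 6.13% of windows, and in 20.1% of intronic regions outside islands (17.1 to 23.5) and 3.50% of those inside. Intergenic regions, promoter regions and windows were not split by island. Such words are frequent in AT-rich sequence, so windows in the same band of GC content are the closer comparison. Between 50 and 60% GC, 34.7% of 225 intronic regions outside islands held AGATAA, against 4.41% of windows, a difference of 30.3 points (24.3 to 36.7), and 28.0% held TGANTCA, against 4.64%, a difference of 23.4 points (17.9 to 29.6). Between 60 and 70% GC, 14.3% of 315 held AGATAA, against 1.68% of windows, and 16.8% held TGANTCA, against 3.33%. In each library's own peaks both words were more frequent in intronic than in promoter peaks in 5 of 5 libraries, by 11.8 ± 3.12 points for AGATAA and 10.2 ± 1.88 for TGANTCA (SD, n = 2). Against intergenic peaks the directions were mixed, with AGATAA higher in 2 of 5 libraries and TGANTCA in 1 of 5. A word is a match of letters and not a bound site.

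Together 246 of 887 members held at least 1 of these words, and 22 held both. Of the 246, 12.6% held a canonical G4 motif (9.02 to 17.3), 8.13% an island and 32.1% a peak in all 5 libraries (26.6 to 38.2). The 137 with AGATAA had a G4 motif in 10.9%, against 32.5% of the 750 without the word, and their median GC content was 58.2%, against 65.7%. These are shares of sets formed after the counts of the words were seen. They were not compared at equal GC content, and the 246 had a median GC content of 59.6%. In the central 200 bp, 15.0% of the 246 held a motif. Over all intronic regions that share was 6.93% at 50 to 60% GC and 27.7% at 60 to 70% GC.

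**Figure D3:**
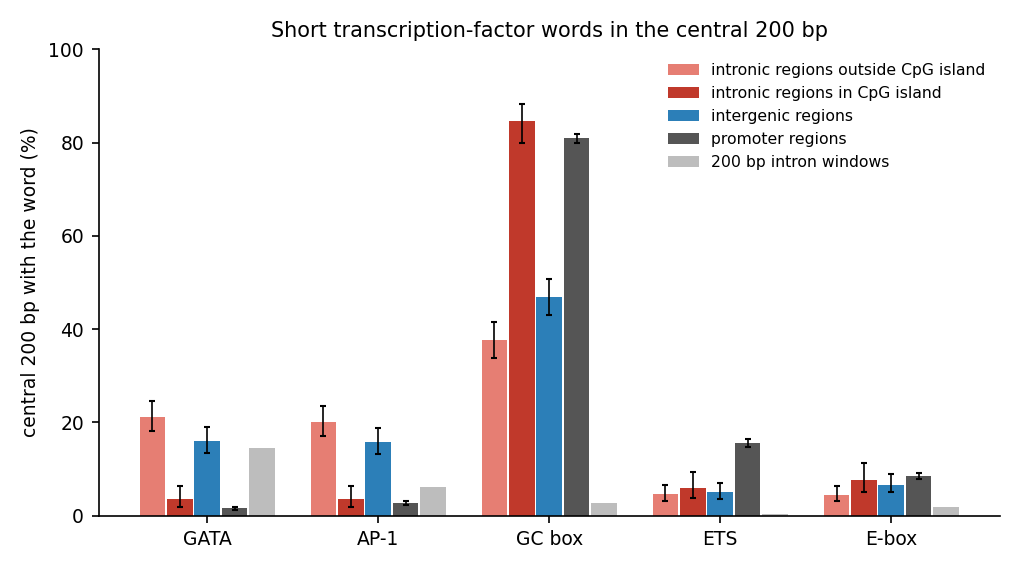
Share of central 200 bp windows (vertical axis, %) with the GATA, AP-1, GC box, ETS or E-box word on either strand, for intronic regions outside and in CpG islands, intergenic regions, promoter regions and all intron windows; bars on the first 4 groups are 95% Wilson intervals. Within the intronic regions, GATA and AP-1 words stand at 21.1% and 20.1% outside islands and at 3.50% in islands.

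The GC box GGGCGG was the most frequent of the 5 words. It was present in 52.8% of intronic regions, against 46.9% of intergenic and 80.9% of promoter regions and 2.72% of windows, and 84.6% of intronic regions in islands had it. CCGGAAG, the word of ETS factors such as GABPA, was in 5.07% of intronic and 5.12% of intergenic regions, against 15.5% of promoter regions. CACGTG, the E-box of MYC and USF proteins, was in 5.52% of intronic, 6.68% of intergenic and 8.51% of promoter regions. Outside islands at 60 to 70% GC, 44.1% of 315 intronic regions held GGGCGG, against 19.1% of windows, which were not split by island. At 50 to 60% GC the shares were 19.6% and 7.53%. CCGGAAG was in 5.71% against 1.87%, and CACGTG in 4.13% against 5.33%, at 60 to 70% GC. An excess over windows in the same GC band was thus not confined to GATA and AP-1 words. GC content was not made equal inside a band, so its part in these differences was not tested. GGGCGG itself contains a guanine run, so it is not independent of the G4 motif.

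Intronic regions were found in fewer libraries than promoter regions. A peak in all 5 libraries was present at 366, 41.3% (38.1 to 44.5), in 4 libraries at 222 and in 3 at 299, where 55% of all high-confidence regions had all 5. The share was 38.7% in intergenic regions, a difference of 2.60 points whose interval included 0 (−2.38 to 7.52), and 59.0% in promoter regions, a difference of −17.7 points (−21.1 to −14.2). Presence ran between 71.0% in 2b and 93.5% in 2c.

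The fold enrichment followed. The median percentile within the own list was 55.4 for intronic and 68.7 for promoter regions in 1a, 56.6 and 65.1 in 1c, 46.0 and 57.6 in 2a, 45.3 and 58.8 in 2b, and 51.5 and 63.0 in 2c. Intronic medians were below promoter medians in 5 of 5 libraries, by a mean of −11.5 ± 0.913 (SD, n = 2). Against intergenic regions they were higher in 4 of 5 libraries, with a mean difference of 2.32 ± 1.27 and −0.493 in 1a. In linear fold the intronic medians lay between 5.98 in 2b and 7.08 in 1a and the promoter medians between 6.64 in 2b and 8.11 in 1a.

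**Figure D4:**
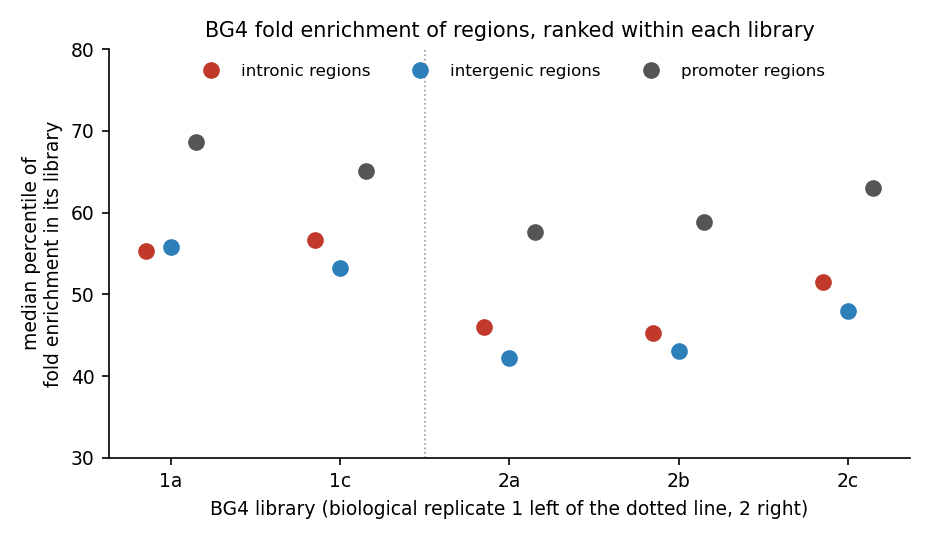
Median percentile of fold enrichment within each library's own peak list (vertical axis) for intronic, intergenic and promoter regions with a peak in that library (horizontal axis, 5 libraries; biological replicates separated by a dotted line). Intronic medians lie between 45.3 and 56.6 and promoter medians between 57.6 and 68.7.

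The single peak lists differed in how many intronic peaks they held. They made up 16.6% of the 12468 peaks of 1a and of the 10053 of 1c, but 9.95% of 8041 (2a), 9.52% of 9009 (2b) and 12.3% of 11110 (2c). The mean over biological replicates was 13.6 ± 4.22% (SD, n = 2), so replicate 1 was the higher. Of the intronic peaks, 38.2% in 1a and 41.4% in 1c fell in the high-confidence list, against 79% in 2a, 74.4% in 2b and 59.3% in 2c. Of the intronic peaks of 2a, 30.2% carried a motif, against 21.5% in 1a. The number of reads per library is unknown, so the part of depth in this was not tested.

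Most members lay beyond the first intron. By the longest basic protein-coding transcript that held them in an intron, 267 of the 812 with such a transcript lay in intron 1 (32.9%, 29.7 to 36.2), 99 in intron 2, 71 in intron 3, 68 in intron 4 and 307 in intron 5 or later. Counting the first intron of any basic transcript the share was 40.4%. The transcripts used had a median of 12 introns. The share of intron sequence away from starts that is first intron was not set beside these counts. They therefore show no preference for first or later introns. First-intron members had a peak in all 5 libraries in 34.8%, against 44.8% in later introns, a difference of −9.94 points (−16.8 to −2.75). The motif was in 25.5% of first-intron members, against 31.9%, with an interval that included 0 (−12.8 to 0.253). By distance, 137 members lay 1000 to 2000 bp from a basic start and 46.0% of these had an island, while 35 lay more than 50000 bp away and 14.3% had one.

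Of the motif-bearing members whose hosts lay on 1 strand, 238 had the motif on 1 strand only. It was the coding (non-template) strand, whose sequence the RNA shares, in 143, or 60.1% (53.7 to 66.1). Motif-bearing intron windows in general had it there in 48.9%, a difference of 11.2 points (4.81 to 17.2). Windows of the same introns had it there in 54.8%, and that difference of 5.27 points had an interval that included 0 (−1.27 to 11.5). In islands the share was 66.4%, against 51.9% outside, a difference of 14.5 points (1.95 to 26.6). In later introns it was 62.3%, against 49.2% in first introns, with first minus later at −13.2 points (−27.2 to 1.26).

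Chromosome 19, the most gene-dense and GC-rich human chromosome, held 196 of the 887 regions (22.1%) in 133 host genes. That was 7.71 regions per Mb of intron away from starts, against 0.765 over all chromosomes, a ratio of 10.1 to the number that intron length alone would place there (8.86 to 11.4). The ratio was 2.37 on chromosome 22, 2.30 on 16 and 1.86 on 17, and 0.0861 on 13, which had 2 regions. BG4 regions of every class were many on chromosome 19, with 1009 of the 8937 high-confidence regions. Of these 1009, 19.4% were intronic, and the next highest intronic share was 13.0%, on chromosome 9. Members on chromosome 19 held a motif in 45.9%, against 24.5% on the other chromosomes, and a peak in all 5 libraries in 56.6%, against 36.9%, differences of 21.5 (13.9 to 29.1) and 19.7 points (11.8 to 27.3). Their median GC content was 67.2%, against 63.8%. Without chromosome 19, the difference in motif share between intronic and intergenic regions was 3.97 points with an interval that included 0. The number of copies of each chromosome in K562 was not measured here.

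**Figure D5:**
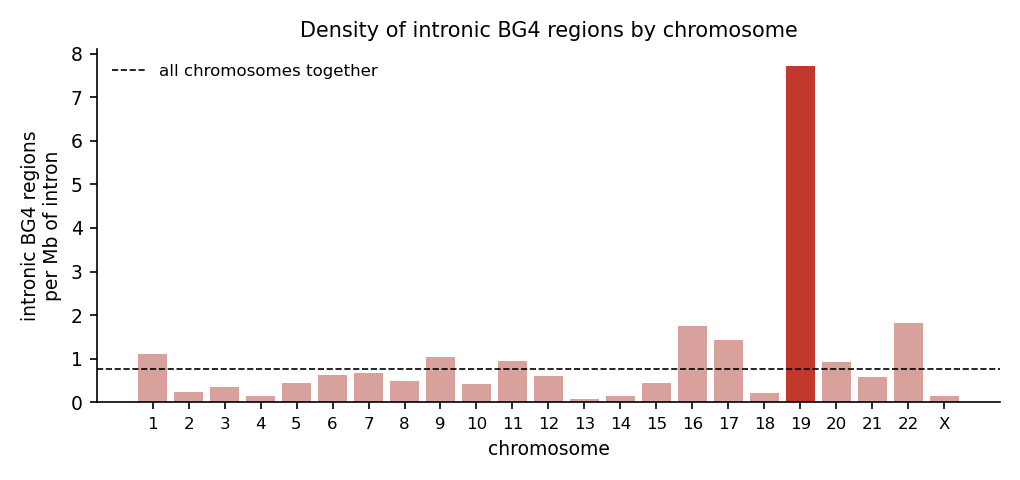
Intronic BG4 regions per Mb of intron sequence more than 1 kb from starts (vertical axis) by chromosome (horizontal axis); the dashed line marks all chromosomes together, 0.765 per Mb. Chromosome 19 stands at 7.71 per Mb and chromosome 13 at 0.0658.

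The 887 regions fell in 686 host genes, of which 547 held 1 region, 100 held 2 and 39 held 3 or more. GSE1, a coiled-coil protein found with histone deacetylase complexes, held 14 regions over 300.4 kb of chromosome 16. None of the 14 held a canonical motif, 2 lay in an island, 6 held the GATA word and 3 had a peak in all 5 libraries. The highest of them, chr16:85415547-85415987, had folds of 6.83 (1a), 10.5 (1c), 14.2 (2a), 9.75 (2b) and 10.5 (2c), and the lowest median percentile was 9.31. ERCC1, a DNA repair nuclease subunit, held 6 regions within 16.2 kb, all in the long first intron of an extended transcript, and 4 of them had a motif and 4 an island. CELF5 and LTBP4, a latent TGF-beta binding protein, held 5 each.

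Among genes with 4 regions, MNT, a MAX partner and MYC antagonist, had all 4 in every library, 3 with a motif and 3 in an island, at a median GC content of 77.4%. PIEZO1, a mechanosensitive channel of red cells and other tissues, also had 4 in every library, all in its first intron, 1 with a motif and none in an island. PIEZO1 was named after its values were seen. HCN2, a pacemaker channel, had 4 regions in 3 libraries each. BCR, the fusion partner of ABL1 in these cells, had 4 regions without motif or island at a median GC content of 55.3%. Their median percentiles lay between 1.05 and 3.43, near the bottom of the lists. The region of BCR in all 5 libraries, chr22:23566154-23566342, had folds of 5.63 (1a), 5.10 (1c), 3.54 (2a), 3.55 (2b) and 3.10 (2c). The number of copies of this locus was not measured.

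Host genes more often had a BG4 region at their own start. Of 685 hosts with an intron, 357 (52.1%) had a high-confidence region within 1 kb of a protein-coding start of their own, against 35.3% of 17985 other genes, a difference of 16.8 points (13.0 to 20.6). Hosts were longer, with a median of 43.2 kb against 29.3 kb, and the difference was 15.5, 16.5, 13.1, 13.3 and 19.2 points in 5 equal bins of gene length ordered short to long, each with an interval above 0. CELF5, ARHGAP45 and PRKD2 were among the hosts with none there.

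Gene lists were described against all 18670 protein-coding genes with an intron, of which 718, or 3.85%, held a region when every overlapping host was counted. Most lists had longer genes. Lead hosts made up 1.18% of genes in the shortest of the 5 length bins and 4.90% in the longest. The erythroid and megakaryocytic list had a median gene length of 35.7 kb, against 29.7 kb over all genes. The lists were chosen with earlier results of these data known, so their shares are descriptions only. Why some lay above 3.85% was not tested. In the erythroid and megakaryocytic list 7 of 40 genes held one. KLF1, the erythroid Krüppel-like factor, had a region in intron 2 with a motif and an island and folds of 7.84 (1a), 11.0 (1c), 8.43 (2a), 9.28 (2b) and 10.5 (2c). ZFPM1, the GATA1 cofactor FOG1, had 2 regions in intron 3, both in 5 libraries and neither with a motif. SLC4A1, the band 3 anion exchanger of red cells, had one in intron 1 with the GATA word shown above and folds between 3.89 in 2b and 5.95 in 2c. The platelet integrins ITGA2B and ITGB3 had 1 region each in 4 libraries, and RUNX1 had 2.

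Signalling and leukaemia genes held regions in 5 of 32: the kinase subunits PIK3CD (3 regions) and PIK3R2, the exchange factor VAV1, BCR and STAT3. Chromatin enzymes did so in 8 of 49, led by the remodeller CHD4, the demethylase KDM2B and the methyltransferase DOT1L. The KDM2B region, with 83.8% GC, had folds of 17.1 (1a), 12.4 (1c), 9.83 (2a), 6.79 (2b) and 8.40 (2c). Its lowest percentile within a list was 60.4. Of the DNA methylation machinery TET3 alone of 18 held one, in intron 4 with no motif, and of 19 helicases and nucleases of G4s and R-loops none did. The intervals of these last 2 shares, 0.988 to 25.8% and 0 to 16.8%, both included the 3.85% over all genes.

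Developmental transcription factors held regions in 7 of 52 genes, led by PAX5, CUX1 and TCF3. Of 29 genes around BCR on chromosome 22, 2 held one, BCR and PRAME. Of 23 imprinted genes 3 did: PEG10, a retrotransposon-derived gene, KCNQ1 and DLGAP2. PEG10 had 2 regions in its intron that shared a peak in 1a, and the stronger had folds of 17.5 (1a), 16.1 (1c), 13.3 (2a), 8.59 (2b) and 14.4 (2c).

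Tandem repeats with a period of 2 to 60 bp and at least 70% matching bases were scored over the central 200 bp. They were found at 13 members, 1.47% (0.858 to 2.49), against 0.621% of intergenic and 0.134% of promoter regions and 0.257% of a sample of intron windows. At members narrower than 200 bp the repeat may lie partly outside the region. The 13 included the region of AHRR (85.5% matching) and one in MAG, a myelin protein, with a period of 41 bp. In regions with a motif, the summit of the strongest peak lay a median of 39 bp from the motif centre in intronic, 39.5 bp in intergenic and 47 bp in promoter regions. The median distance to the middle of the region was shorter, at 19.5, 21 and 22 bp in the same order.

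At the edges of the rule, the members just beyond 1 kb were in RPS6KA1 (1008 bp), PHF23 (1011 bp) and STAT6 (1014 bp), and the regions just within it were near BRWD1 (999 bp), C15orf39 (996 bp) and GET1 (988 bp). The RPS6KA1 region had a peak in all 5 libraries and the other 2 members in 3 each; the BRWD1 and C15orf39 regions had all 5 and that of GET1 3. The farthest members lay in ROR2, a WNT receptor kinase (150492 bp), MAD1L1, a spindle checkpoint protein (128426 bp), and NRCAM, a neuronal adhesion protein (111800 bp). None of these 3 held a canonical motif, and their regions were found in 3, 4 and 3 libraries.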

How the data were processed

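The 5 BG4 libraries of untreated K562 cells, from 2 biological replicates, were used and grouped by their labels. Peaks were called by the authors with MACS2 on hg19, per the submitters' processing notes, in each library separately, as the separate lists show; the sources used here do not give the aligner, settings or versions. The fold enrichment (a ratio to local background) and the −log10 p of each summit were deposited by the authors and served here only to rank, filter or describe peaks inside 1 list. The names of peaks in lists 2a and 2c carry each other's letter; the labels were followed, so values printed for 2a and 2c may be exchanged. Read counts were not given, so the depth is unknown.

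The deposited high-confidence regions were identical to the stretches covered by 3 or more of the 5 lists (8937 on chromosomes 1 to 22 and X). Regions were classed with GENCODE release 44 mapped to GRCh37 and its genome, whose build is that of the lists. Lead hosts were those of the longest basic transcript with the region in an intron. A library counted as present where a peak overlapped by 1 base. A percentile is a peak's rank by fold within its list. Windows tiled all intron sequence over 1 kb from basic starts. A regular expression found motifs and may split a long G run. Shares have 95% Wilson and differences Newcombe intervals, which cover counting error only; neighbouring regions are not independent, and regions are not replicates. For a mean ± SD (n = 2), values were first averaged over the technical libraries of each biological replicate. Functions were tested on simulated data (Python 3.11.15, numpy 2.4.6, matplotlib 3.10.9).

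Genes were named by rule: the 12 strongest regions, up to 8 hosts with most regions (1 of these has no symbol and is not described), hosts from 11 gene lists, regions at the edges of the distance rule and the 4 with most guanine runs; some that the rule took, and the results of 3 lists, are not reported here. The members, lists and tests were chosen with earlier results of these data known. Alternatives covered the distance, transcript and exon rules, library and p thresholds, widths, motif, island and intron definitions, and each library and chromosome 19 or 22 left out.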

Additional observations from a re-analysis of the deposited data

Results flagged for a closer look

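Of 23 values checked over the 5 libraries, 1 stood apart from the others. The region in intron 4 of ABCC1 had a fold percentile of 93.1 in library 2b, against 98.9 to 99.9 in the other 4 libraries. Chance flags about 1 in 20 such groups.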

How the results depend on the processing

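No paired analysis was possible because the groups that share replicate numbers in the labels (K562 BG4 and input, HaCaT treated and control) were not compared, input and HaCaT samples not being analysed here; classes of regions were compared within each BG4 library. Differences are intronic minus the class named, in percentage points, and an interval that included 0 counts as no call. Of 322 comparisons of 19 results with an alternative, 275 kept their call or lack of one. Counts and shares among these stayed near the reported value, and differences without a call could change sign. The all-5 share difference from intergenic regions (2.60) was −1.34 with all starts, −2.35 with no base in an exon and −0.0346 without 1c. It was −0.390 at widths of 150 to 300 bp and −1.80 without chromosome 19. The percentile difference from them (2.32) was −0.602, −1.23, −2.16 and −0.583 with all starts, no exon base, those widths and no chromosome 19. The motif difference from intergenic regions lost its call with starts of all transcripts (1.87), with no base in an exon (2.12) and without chromosome 19 (3.97), and with runs of 2 or more G it turned to −1.98. The motif difference from promoter regions was 2.35 among regions in all 5 libraries, −0.476 at a −log10 p of at least 10, −4.21 at widths of 150 to 300 bp and −7.88 to −3.52 with a library left out, no longer called without 1a (−3.52) or 2c (−3.85). At 60 to 70% GC the difference from intergenic regions lost its call with all starts (6.37) and at −log10 p 10 (8.65), and ran between 4.37 and 11.4 with a library left out, not called without 2a (6.76) or 2b (4.37). With runs of 2 or more G, these were 0.231 for intergenic and 0.910 for promoter regions. At 70% GC or more the intergenic difference was 10.1 beyond 5000 bp, 8.58 with no base in an exon and 0 with runs of 2 or more G, and the promoter difference was 7.78 with no base in an exon and 0.365 with runs of 2. The island difference from intergenic regions was not called in all-5 regions (−4.06), at −log10 p 10 (−5.44), at widths of 150 to 300 bp (−7.03), with looser islands (−3.74) or without 1a (−5.03; −7.73 to −5.03 over libraries). The share in all 5 libraries exceeded the intergenic one at −log10 p 10 (9.20). The percentile difference from promoter regions was −3.48 in all-5 regions, not in every library. That from intergenic regions had the same sign in every library beyond 500 bp (2.64), in all-5 regions (4.75), at −log10 p 10 (3.91) and with 1a, 1c, 2b or 2c left out (1.76 to 4.67). The number of regions was 561 beyond 5000 bp, 366 in all 5 libraries, 451 at −log10 p 10 and 386 at widths of 150 to 300 bp. The intronic share of peaks was 8.61% beyond 5000 bp. The first-intron share was 39.3% with all starts, 28.8% beyond 2000 bp, 24.6% beyond 5000 bp, 38.5% with no base in an exon, 27.6% in all-5 regions, 40.4% for any basic transcript and 36.3% without chromosome 19. The coding strand share was 66.4% beyond 5000 bp. The causes were not tested. Leaving out chromosome 19 or regions that share a peak, and the alternatives for results by GC band and for GATA and AP-1 words, were chosen after seeing the data. The depth is unknown.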
